A study of Bos taurus with 12 samples.

Results

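Genes of fatty acid, glyceride and sterol synthesis were examined in the biceps brachii muscle of bulls. The set holds 38 genes, 20 of fatty acid and glyceride synthesis and 18 of sterol synthesis, found on the array by gene symbol, gene number, accession or probe description. Of these, 37 had at least 1 probe (STARD4, a carrier of cholesterol between membranes, had none under its name), and 35 of them, among 13667 genes tested in all, passed the filter on dim probes (well above background on at least 4 arrays). The 2 that did not pass were ELOVL5, an elongase of polyunsaturated fatty acids, which was well above background on 0 arrays, and THRSP, a nuclear protein that promotes lipogenesis, which was so on 2 arrays. Messenger RNA was measured on 1-colour Agilent bovine arrays in 12 animals aged 18 to 20 months, 4 per group and 1 array per animal. The controls were untreated. The second group received dexamethasone, a synthetic glucocorticoid, in the feed at 0.75 mg per head for 42 days. The third group received clenbuterol, a beta-adrenergic agonist, for 28 days (2, 4 and then 6 mg per head, in the first, second and last 2 weeks) together with dexamethasone at 0.66 mg per head for 21 days. Dexamethasone itself was thus given at another dose and for another time in the third group than in the second, and both comparisons with untreated animals share the same 4 controls. The 12 animals were those with the best RNA among 24, so they are not a random draw.

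Fatty acids are built from acetyl-CoA by acetyl-CoA carboxylase and fatty acid synthase with NADPH from the pentose phosphate pathway and malic enzyme, then elongated, desaturated and esterified to glycerol. Cholesterol is built from the same acetyl-CoA through mevalonate, squalene and lanosterol. The transcription factor SREBP-2, made from SREBF2, drives the sterol genes and SREBP-1c, made from SREBF1, the fatty acid genes. In cattle the main site of fatty acid synthesis is adipose tissue, and intramuscular fat cells are part of any muscle sample.

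Levels are given as log2 of the processed signal relative to each array's 75th percentile, so 0 is a fairly bright probe, and levels of different genes are not comparable because each probe has its own efficiency. On every array 53.2% to 68.7% of spots were well above background. The number of arrays limits the precision. The muscle label was borne out by its defining genes: 11 of 12 fibre markers were tested and their mean level was between 7.08 and 8.04 on all 12 arrays. Of 18 adipocyte markers, 13 were tested, with mean levels of -1.69 to -1.43 in controls, -1.82 to -0.57 after dexamethasone and -1.94 to -0.83 after the combination. After dexamethasone 8 of them lay above control and 5 below, and 0 passed an adjusted p of 0.05 (limma). At an unadjusted p under 0.05, 3 were higher (CIDEA by 1.14, AQP7 by 0.97 and CD36 by 0.55) and 0 lower, against 5.47% and 6.86% of all genes. After the combination 0 were higher or lower in this way (6.99% and 5.15%). Adiponectin (ADIPOQ) and leptin (LEP), which define fat cells, did not pass the filter, and PLIN1, the lipid droplet coat protein of fat cells, was well above background on 2 control, 3 dexamethasone and 2 combination arrays. One array stood apart in this list: dexamethasone replicate 2 had FABP4, the adipocyte fatty acid carrier, at 0.93, against -6.17 to -1.38 on the other 11 arrays. In whole muscle, fewer cells of a type and less RNA per cell cannot be told apart. Scan days were unevenly spread, since 3 of 4 arrays of each treated group but 1 of 4 controls were scanned on day 2. No slide held arrays of both treated groups, and no combination array shared a slide with a control.

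None of the 35 tested genes passed an adjusted p of 0.05 in any comparison (limma, Benjamini-Hochberg over all genes). Over all genes, 0.615% were called for dexamethasone against control, 0.0439% for the combination against control and 0.0146% for the combination against dexamethasone. At an unadjusted p under 0.05, 4 members were higher and 1 lower after dexamethasone (5.47% and 6.86% of all genes), 8 were higher and 1 lower after the combination (6.99% and 5.15%), and 4 were higher and 1 lower in the combination against dexamethasone (6.69% and 4.31%). After dexamethasone these were SREBF2, INSIG1, SCD and ACSS2 (higher) and FADS2 (lower). After the combination they were SREBF2, INSIG1, MVD, SQLE, LSS, CYP51A1, SCD and ACSS2 (higher) and LPIN1 (lower). Between the treated groups they were FADS1, FADS2, LSS and CYP51A1 (higher in the combination) and AGPAT2 (lower). What follows is therefore a description of sizes and spreads. The differences from control with the smallest p were in the sterol branch: INSIG1 and SREBF2 in both treated groups, and LSS and CYP51A1 in the combination. CYP51A1 passed the filter on dim probes only through the combination arrays, so its small p there is not independent of the filter. In the fatty acid branch the smallest p belonged to the desaturases FADS1 and FADS2, between the treated groups.

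**Figure D1:**
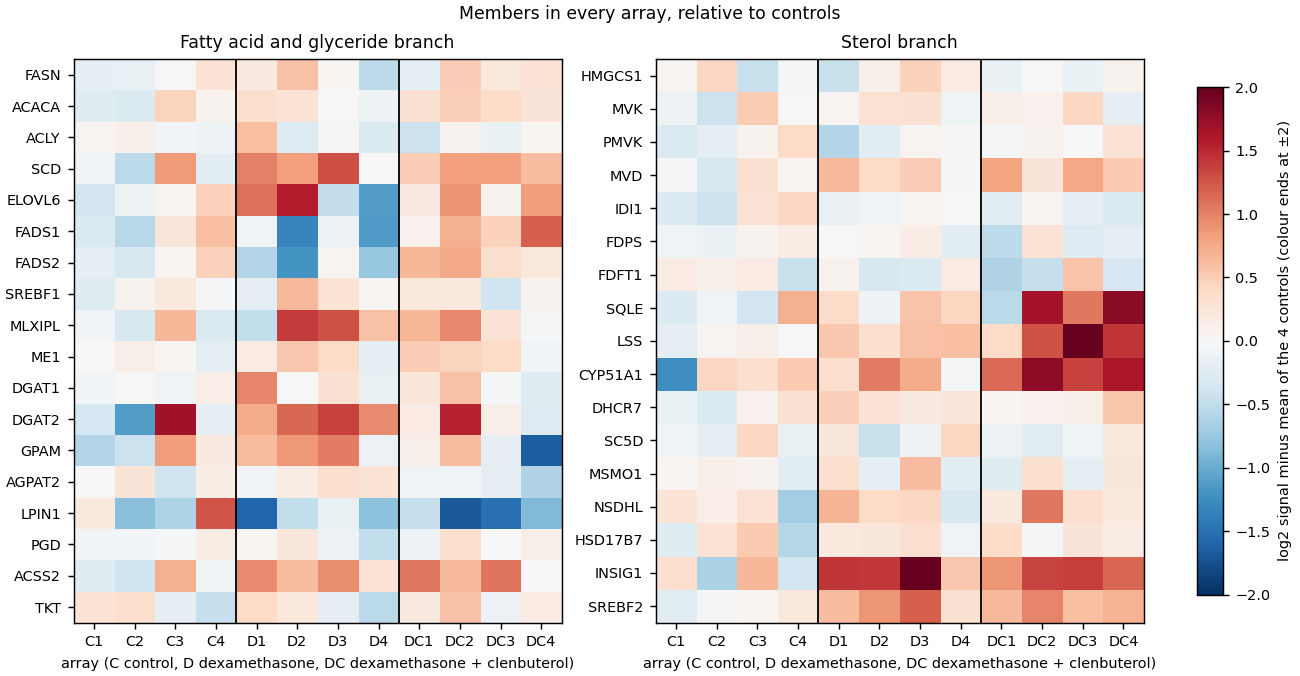
Heat map of the 35 tested genes (rows) on the 12 arrays (columns; C control, D dexamethasone, DC dexamethasone with clenbuterol), coloured by log2 signal minus the mean of the 4 controls, with colours ending at ±2. INSIG1 and SREBF2 are red on all 8 treated arrays, FADS1 and FADS2 are blue on dexamethasone replicates 2 and 4 and red on the combination arrays, and most rows of the sterol pathway between HMGCS1 and FDFT1 are pale throughout.

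The regulators of the sterol branch differed from control by similar amounts in both treated groups. SREBF2 had levels of 0.043, 0.21, 0.29 and 0.47 in controls, 0.87, 1.14, 1.44 and 0.56 after dexamethasone and 0.90, 1.23, 0.86 and 0.95 after the combination. All 8 treated animals lay above all 4 controls. The log2 difference from control was 0.75 after dexamethasone (SE 0.19, n = 4 against 4, 95% interval 0.33 to 1.18, limma adjusted p = 0.117) and 0.73 after the combination (SE 0.19, 0.31 to 1.16, limma adjusted p = 0.215). INSIG1, the endoplasmic reticulum protein that holds SREBPs back when sterols are plentiful and is itself a classical SREBP target, had levels of -1.49, -2.46, -1.15 and -2.19 in controls. Its levels were -0.385, -0.41, 0.84 and -1.29 after dexamethasone and -0.94, -0.47, -0.435 and -0.67 after the combination. All combination animals lay above the controls, whereas dexamethasone replicate 4 lay within them and dexamethasone replicate 3 far above. The log2 differences were 1.51 (SE 0.40, 95% interval 0.64 to 2.38, limma adjusted p = 0.126) and 1.19 (SE 0.40, 0.32 to 2.06, limma adjusted p = 0.289). Without dexamethasone replicate 4 the adjusted p of INSIG1 was 0.0599 and that of SREBF2 0.0614 (limma), the smallest of any member in any of the alternatives.

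These differences were not the same size on both sides of the scan day. Within scan day 2 (3 treated arrays, 1 control) INSIG1 differed by 2.20 after dexamethasone, and outside it (1 treated array, 3 controls) by 0.41. For SREBF2 the corresponding values were 0.69 and 0.38. After the combination they were 1.57 and 1.03 for INSIG1 and 0.53 and 0.77 for SREBF2. The part of the scan day in these results was not tested, and each value outside day 2 rests on a single treated animal. The 3 controls outside day 2 were scanned on day 1, dexamethasone replicate 4 on day 3 and combination replicate 4 on day 4. Values outside day 2, here and below, thus compare arrays of different scan days and slides.

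**Figure D2:**
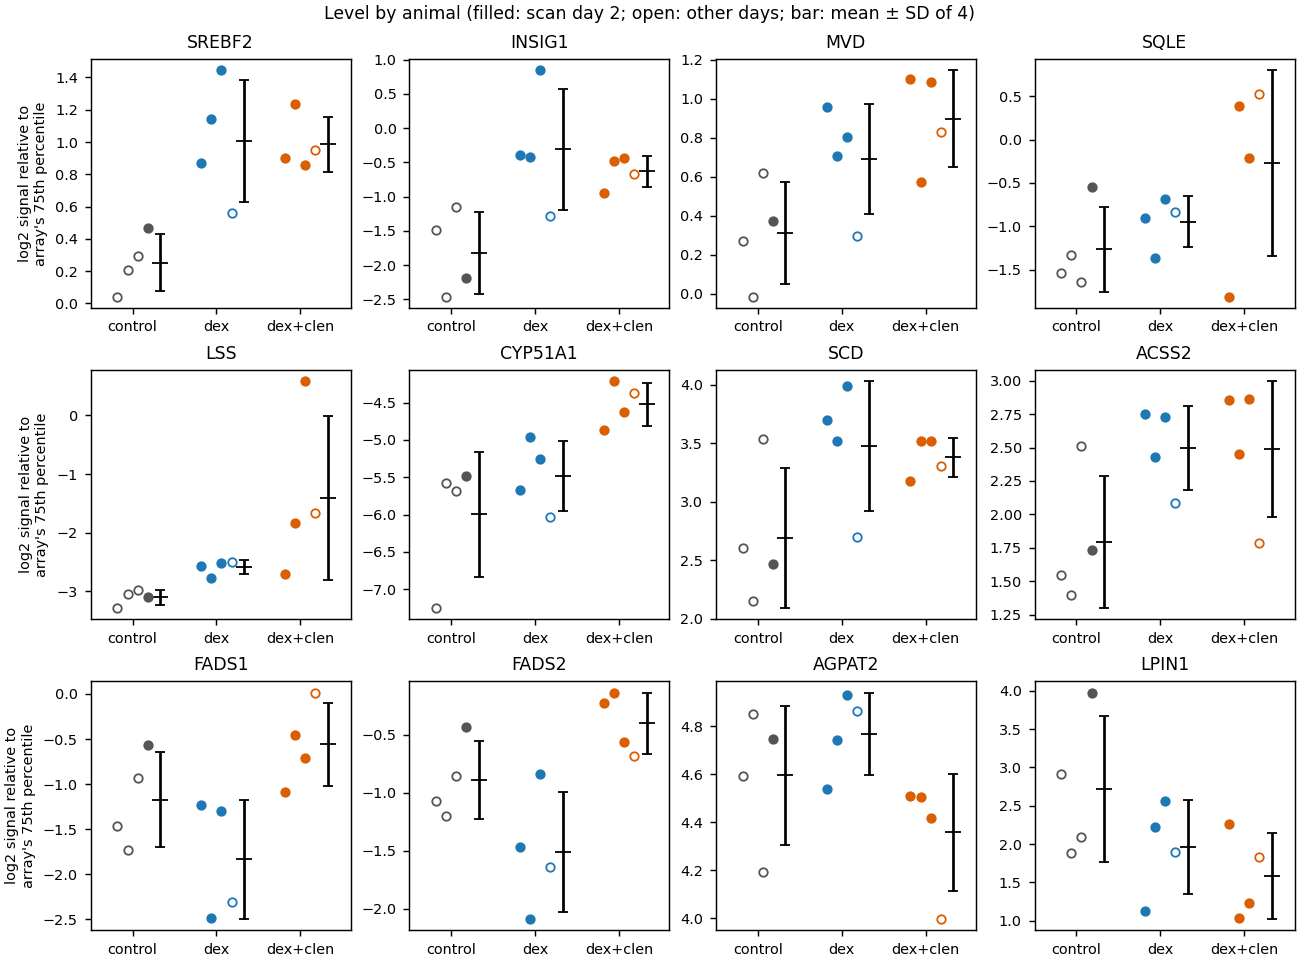
Level of 12 genes in every animal (log2 signal relative to the array's 75th percentile; each panel has its own axis), with filled points for arrays of scan day 2, open points for other days, and the mean ± SD of 4 animals beside each group. The treated animals of SREBF2 all lie above the controls, and those of FADS1 and FADS2 separate the combination from dexamethasone alone.

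Most members that act before squalene differed little from control, and MVD was the exception. HMGCS1, which makes HMG-CoA, the mevalonate kinases MVK and PMVK, the isomerase IDI1, the farnesyl diphosphate synthase FDPS and the squalene synthase FDFT1 had log2 differences from control of between -0.21 and 0.14 in both treated groups. The widest 95% interval among them, for FDFT1 after the combination, ran from -0.77 to 0.35. The highest upper end was 0.59, for MVK after dexamethasone. Differences of up to about these sizes are thus not excluded by these arrays. MVD, which decarboxylates mevalonate diphosphate, had levels of 0.27, -0.013, 0.62 and 0.375 in controls, 0.955, 0.705, 0.81 and 0.30 after dexamethasone and 1.099, 0.57, 1.08 and 0.83 after the combination. Its groups overlapped, with log2 differences of 0.38 and 0.58 (SE 0.20, limma adjusted p = 0.465 and 0.291). The 95% interval after the combination ran from 0.155 to 1.01. The late enzymes SC5D, MSMO1, DHCR7, HSD17B7 and NSDHL, which act on the sterol rings, had differences of between -0.057 and 0.44.

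The steps from squalene to the demethylated sterol (SQLE, LSS and CYP51A1) had wide spreads after the combination or low signal. SQLE, the squalene epoxidase, had levels of -1.535, -1.335, -1.64 and -0.55 in controls and -1.81, 0.39, -0.21 and 0.53 after the combination. In the combination 3 animals lay above the controls and replicate 1 below them, and the difference of 0.99 (SE 0.44, limma adjusted p = 0.401) was 1.504 without that animal. For SQLE the difference was 0.008 within scan day 2 and 2.04 outside it.

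LSS, lanosterol synthase, which closes the ring of squalene epoxide, was measured by 2 probes that did not behave alike. On the brighter probe its levels were -3.28, -3.05, -2.98 and -3.095 in controls, -2.57, -2.77, -2.515 and -2.50 after dexamethasone and -2.71, -1.83, 0.58 and -1.67 after the combination. On this probe all 8 treated animals lay above the controls, and combination replicate 3 lay far above all others. The log2 differences were 0.51 (SE 0.51, limma adjusted p = 0.747) and 1.69 (SE 0.51, limma adjusted p = 0.256), and the second was 1.03 without that animal. The second LSS probe, also well above background on all 12 arrays, gave differences of -0.064 and 0.225, so the values of the brighter probe are uncertain as a measure of the gene.

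CYP51A1, the lanosterol demethylase, was near the limit of detection, with 1 control, 0 dexamethasone and 3 combination arrays well above background. It thus passed the filter only through the combination arrays, and its higher level there is no independent result. Its measured levels were -7.25, -5.58, -5.68 and -5.48 in controls, -5.67, -4.96, -5.26 and -6.04 after dexamethasone and -4.87, -4.215, -4.63 and -4.37 after the combination. All combination animals lay above all others. The fitted log2 difference between the combination and dexamethasone, 0.96 (SE 0.37, limma adjusted p = 0.372), uses the dim values and is not a measured size. Since the dexamethasone arrays give only a bound, the combination was put at 1.16-fold or more above dexamethasone, and this bound was not itself tested. For each dexamethasone array the bound takes the dimmest signal that still counted as well above background, or the probe's own where that was larger. The combination mean in it includes an array that was not well above background, so the bound is only approximate. With 3 of 4 controls not well above background, the fitted log2 difference of the combination from control, 1.48 (SE 0.37, limma adjusted p = 0.186), is not a measured size. It was 1.06 without control replicate 1 and 0.10 with another background correction (normexp).

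**Figure D3:**
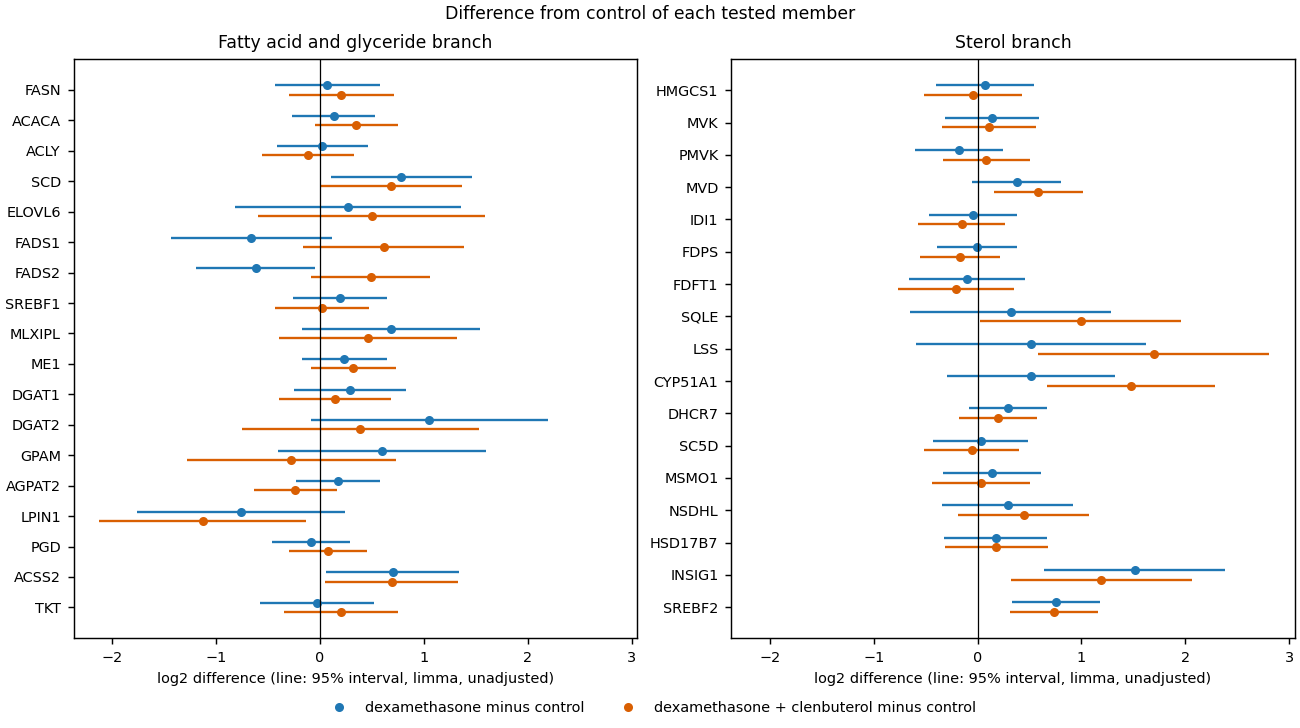
Log2 difference from control (points) with its unadjusted 95% interval from limma (lines) for each of the 18 fatty acid and 17 sterol genes tested, after dexamethasone (blue) and after dexamethasone with clenbuterol (orange). In the sterol branch the intervals of SREBF2 and INSIG1 lie above 0 for both treatments, those of MVD, SQLE, LSS and CYP51A1 (dim in 3 of 4 controls) for the combination, and those of the other genes from HMGCS1 to FDFT1 include 0.

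In the fatty acid branch most regulators and core enzymes had small differences on the probe used for each gene. SREBF1 differed from control by 0.19 after dexamethasone and 0.021 after the combination (SE 0.21). MLXIPL, which encodes the carbohydrate-responsive factor ChREBP, differed by 0.69 and 0.46 (SE 0.39, limma adjusted p = 0.516 and 0.658), with its highest level, -1.76, in dexamethasone replicate 2. FASN, fatty acid synthase, differed by 0.070 and 0.20 (SE 0.23), ACACA, the cytosolic acetyl-CoA carboxylase, by 0.13 and 0.35 (SE 0.18), and ACLY, which releases acetyl-CoA from citrate, by 0.022 and -0.115 (SE 0.20). Dimmer FASN probes that also passed the filter gave 0.099 and 0.26 after dexamethasone. After the combination they gave 0.47 and 0.525, more than the probe used. The suppliers of NADPH were likewise close to control: malic enzyme (ME1) differed by 0.23 and 0.32 (SE 0.19), PGD by -0.086 and 0.079 (SE 0.17) and transketolase (TKT) by -0.031 and 0.20 (SE 0.25). ELOVL6, which lengthens palmitate, was dim and widely spread after dexamethasone, from -5.57 to -2.89, with differences of 0.27 and 0.50 (SE 0.50). THRSP, below the filter, had its highest measured level in dexamethasone replicate 2 as well, at -3.325 against -6.68 to -4.635 on the other arrays.

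The stearoyl-CoA desaturase SCD, which makes oleate, and ACSS2, the cytosolic enzyme that activates acetate, the main lipogenic carbon source of ruminants, were the members of the branch whose difference from control had an unadjusted 95% interval above 0. SCD had levels of 2.61, 2.15, 3.54 and 2.47 in controls, 3.70, 3.52, 3.98 and 2.70 after dexamethasone and 3.18, 3.52, 3.52 and 3.303 after the combination. Control replicate 3 lay among the treated animals, and the other 3 controls lay below all 8. The log2 differences were 0.78 and 0.69 (SE 0.31, limma adjusted p = 0.323 and 0.407), and a second SCD probe gave 0.80 and 0.76. As with SREBF2 and INSIG1, dexamethasone replicate 3 held the highest and replicate 4 the lowest SCD value of that group. ACSS2 had levels of 1.55, 1.40, 2.51 and 1.73 in controls, 2.75, 2.43, 2.73 and 2.08 after dexamethasone and 2.85, 2.45, 2.865 and 1.79 after the combination. Again control replicate 3 was the exception among controls, and the differences were 0.70 and 0.69 (SE 0.29, limma adjusted p = 0.354 and 0.38). Outside scan day 2 the SCD difference after dexamethasone was -0.065 and the ACSS2 difference after the combination -0.031, against 1.265 and 0.99 within it.

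The desaturases FADS1 and FADS2, which introduce double bonds into polyunsaturated fatty acids, lay lower after dexamethasone and higher after the combination than in controls on average. FADS1 had levels of -1.47, -1.73, -0.93 and -0.565 in controls, -1.24, -2.49, -1.30 and -2.31 after dexamethasone and -1.09, -0.46, -0.71 and 0.016 after the combination. FADS2 had levels of -1.07, -1.20, -0.85 and -0.43 in controls, -1.47, -2.09, -0.835 and -1.64 after dexamethasone and -0.22, -0.13, -0.56 and -0.68 after the combination. For both genes the 4 combination animals lay above the 4 dexamethasone animals, while the controls overlapped each of those groups. The combination exceeded dexamethasone by 1.27 for FADS1 (SE 0.36, 95% interval 0.50 to 2.05, limma adjusted p = 0.225) and by 1.11 for FADS2 (SE 0.26, 0.54 to 1.68, limma adjusted p = 0.166). Against control the differences were -0.66 and 0.61 for FADS1 and -0.62 and 0.49 for FADS2, after dexamethasone and the combination.

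The gap between the treated groups kept its sign in all 27 alternatives, from 0.92 to 2.33 for FADS1 and from 0.885 to 1.33 for FADS2, and no alternative gave an adjusted p under 0.05 (limma adjusted p of 0.0914 to 0.429 and 0.105 to 0.635). Within scan day 2, which holds 3 arrays of each treated group, it was 0.92 for FADS1 and 1.16 for FADS2. On that day the dexamethasone arrays were all on slide 2 and the combination arrays all on slide 3, so treatment and slide cannot be told apart. The combination against control was less steady for FADS1, at -0.19 within scan day 2 and 1.39 outside it. FADS1, FADS2 and FADS3 are neighbouring coding genes on cattle chromosome 29 in the RefSeq table of assembly ARS-UCD2.0. FADS3, a related desaturase outside the set, differed from control by 0.090 and 0.085 (SE 0.22). The FADS1 probe carries its name through a match to the human gene, and cross-hybridisation between these related genes was not tested.

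Among the genes of glyceride assembly, LPIN1, the phosphatidate phosphatase lipin 1, had the largest negative differences. Its levels were 2.91, 1.88, 2.10 and 3.98 in controls, 1.13, 2.22, 2.57 and 1.90 after dexamethasone and 2.26, 1.04, 1.23 and 1.83 after the combination. The groups overlapped, and control replicate 4 was the highest of all. The differences of -0.76 and -1.13 (SE 0.46, limma adjusted p = 0.544 and 0.366) were -0.34 and -0.71 without that control. AGPAT2, which acylates lysophosphatidate, had levels of 4.54, 4.74, 4.93 and 4.86 after dexamethasone and 4.51, 4.505, 4.42 and 4.00 after the combination. These do not overlap, with the combination lower by 0.41 on the log2 scale (SE 0.18, limma adjusted p = 0.443), and the controls, from 4.19 to 4.85, overlapped both groups. The mitochondrial acyltransferase GPAM differed from control by 0.60 and -0.27 (SE 0.46), and the diacylglycerol acyltransferases DGAT1 and DGAT2 by 0.29 and 0.14 (SE 0.25) and by 1.05 and 0.39 (SE 0.52). DGAT2 spanned -0.76 to 2.04 among the controls alone.

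Taken branch by branch, 13 of 18 fatty acid genes and 13 of 17 sterol genes lay above 0 after dexamethasone, against 54.6% of all genes. After the combination the counts were 14 of 18 and 12 of 17, against 53.7%. The median log2 difference of the fatty acid branch was 0.18 after dexamethasone and 0.26 after the combination, that of the sterol branch 0.17 and 0.18, and that of all genes 0.033 and 0.031. Between the treated groups the medians were -0.053 and -0.028, with 8 of 18 and 7 of 17 genes above 0, against 52.3% of all genes. The members were not chosen blind to these data, so no test is attached to these counts. Genes whose 4 values in each group did not overlap were SREBF2 and LSS, both higher, after dexamethasone (2.52% of all genes were higher and 3.92% lower in this way), SREBF2, LSS, INSIG1 and CYP51A1, all higher, after the combination (4.49% and 3.72%), and, in the combination against dexamethasone, FADS1, FADS2 and CYP51A1 on the higher side (2.54%) and AGPAT2 on the lower (2.74%). Of these, CYP51A1 passed the filter only through the combination arrays. LSS is counted by its brighter probe. On its second probe the levels were -3.26 to -2.875 in controls, -3.61 to -2.99 after dexamethasone and -3.04 to -2.74 after the combination. There both treated groups overlapped the controls.

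The mean level over the sterol genes was -0.55 to -0.24 in controls, -0.31 to 0.074 after dexamethasone and -0.295 to 0.15 after the combination. For the fatty acid genes the ranges were -0.15 to 0.33, -0.14 to 0.43 and 0.085 to 0.55. The groups overlapped for both branches. The sterol mean minus the fatty acid mean, which shows how the branches stood relative to each other within an animal, was -0.50 ± 0.12 (SD, n = 4) in controls, -0.39 ± 0.18 after dexamethasone and -0.28 ± 0.29 after the combination, and the groups overlapped here as well. The sterol mean includes CYP51A1, which passed the filter only through the combination arrays, and the brighter LSS probe, which the second probe did not match. These had the largest differences of the branch after the combination, 1.48 and 1.69. The higher sterol mean there is thus no independent result, and a mean without them was not computed. Outside scan day 2 the fatty acid median was -0.17 after dexamethasone, with 5 of 18 genes above 0, and 0.007 after the combination, while the sterol medians were 0.13 and 0.16. Within it the fatty acid medians were 0.27 and 0.075 and the sterol medians 0.205 and 0.20.

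**Figure D4:**
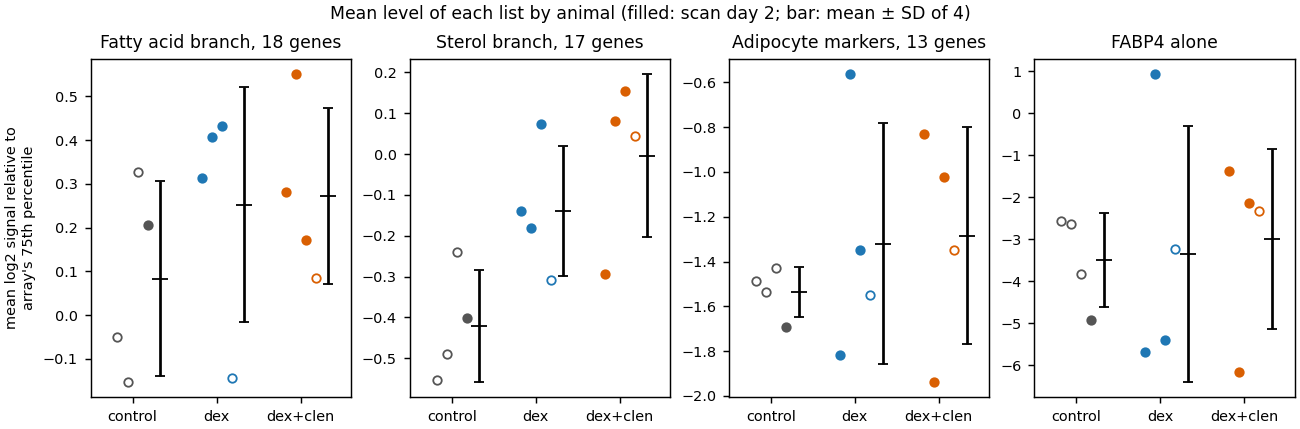
Mean level per animal of the 18 fatty acid genes, the 17 sterol genes and 13 adipocyte markers, and the level of FABP4 alone (log2 signal relative to the array's 75th percentile), with filled points for scan day 2 and the mean ± SD of 4 animals. Both branch means overlap between groups, and dexamethasone replicate 2 stands highest for the adipocyte markers and FABP4 but not for either branch.

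Dexamethasone replicate 2 had the highest adipocyte mean, -0.57, and the highest level of all 12 arrays for FASN (1.53), SREBF1 (1.39), ELOVL6 (-2.89), ME1 (-0.905), MLXIPL (-1.76) and THRSP (-3.325). It also had the lowest level of all 12 arrays for FADS1 (-2.49), FADS2 (-2.09) and SC5D (-0.51). Without that array the log2 differences after dexamethasone were -0.10 for FASN, 0.039 for SREBF1, -0.16 for ELOVL6, 0.13 for ME1 and 0.45 for MLXIPL. These genes were picked for their high level on that array, so lower values without it were fixed in advance. The mean of dexamethasone replicate 2 over the fatty acid genes was 0.41, against 0.43 in dexamethasone replicate 3, and its sterol mean was -0.18. Combination replicate 2 had the lowest adipocyte mean, -1.94, and the highest fatty acid mean, 0.55. The fibroblast markers, 11 of 11 tested, had means of 1.57 to 1.96 in controls, -0.25 to 1.59 after dexamethasone and 0.77 to 1.85 after the combination. The leukocyte markers, 8 of 9 tested, had means of -3.10 to -2.69 in controls, -4.40 to -2.43 after dexamethasone and -3.46 to -3.18 after the combination, which lay below all controls. Of the 8 leukocyte markers, 6 lay below control after dexamethasone and 2 above (CD79A by 0.26 and CD68 by 0.21). The value of -2.43 belonged to dexamethasone replicate 1 and exceeded every control. Among the 8, only CD3E, a T cell receptor component, passed an adjusted p of 0.05 in this comparison. CD3E was lower by 1.74 on the log2 scale (SE 0.31, limma adjusted p = 0.0311), with 3 of 4 dexamethasone arrays well above background. The part of these cell types in the results was not tested.

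Among 43 other genes of fatty acid and glyceride synthesis 31 were tested, among 36 other genes of sterol synthesis and cholesterol handling 27, and 0 of either passed an adjusted p of 0.05 in any comparison (limma). At an unadjusted p under 0.05 the 31 fatty acid genes held 4 higher and 1 lower in each comparison with control. The 27 sterol genes held 2 higher and 1 lower after dexamethasone and 3 higher and 1 lower after the combination. In the combination against dexamethasone the fatty acid genes held 0 higher and 1 lower, and the sterol genes 1 higher and 1 lower. Over all genes 5.47% were higher and 6.86% lower after dexamethasone, and 6.99% and 5.15% after the combination. Between the treated groups these shares were 6.69% and 4.31%.

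Among these sterol genes, values were named for those of smallest p. TM7SF2, a sterol reductase, had levels of -2.19, -2.11, -1.47 and -1.49 in controls and -1.12, -0.82, -0.93 and -1.06 after the combination, without overlap, a difference of 0.83 (SE 0.21, limma adjusted p = 0.201). SCAP, the escort of SREBPs out of the endoplasmic reticulum, differed by 0.59 (SE 0.22, limma adjusted p = 0.335) and INSIG2, the relative of INSIG1, by -0.45 (SE 0.17, limma adjusted p = 0.341) after the combination. INSIG2 also differed by -0.38 from dexamethasone alone, and CYP27A1, a sterol hydroxylase, by 0.50 in that comparison (limma adjusted p = 0.443 and 0.431). MYLIP, a ubiquitin ligase, differed by -0.40 after dexamethasone (SE 0.18, limma adjusted p = 0.396).

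Of the other fatty acid genes, ACACB, the mitochondrial acetyl-CoA carboxylase whose product restrains fatty acid oxidation in muscle, had levels of -0.115, 0.18, 0.37 and 1.71 in controls, -2.50, -0.21, -0.945 and -0.87 after dexamethasone and 0.47, -1.57, -1.35 and -1.195 after the combination. The dexamethasone animals lay below the controls, and the combination overlapped them through 1 animal. The differences were -1.67 and -1.45 (SE 0.56, limma adjusted p = 0.242 and 0.355). With all ACACB probes averaged they were -1.09 and -0.39. ACSL1, a long-chain acyl-CoA synthetase, differed by 0.61 after dexamethasone (SE 0.21, limma adjusted p = 0.258) and by -0.62 between the combination and dexamethasone (limma adjusted p = 0.31). AGPAT4, an acyltransferase, differed by 0.87 (SE 0.24, limma adjusted p = 0.215) and TECR, the last enzyme of the elongation cycle, by 0.48 (SE 0.21, limma adjusted p = 0.381) after the combination.

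**Figure D5:**
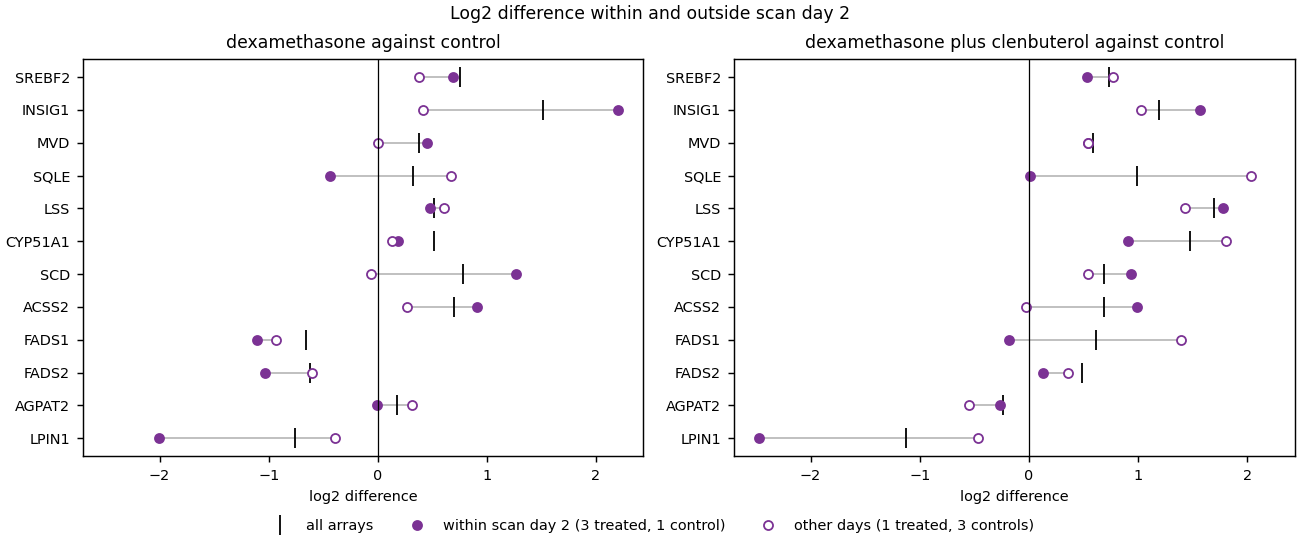
Log2 difference from control of 12 genes over all arrays (bars), within scan day 2 (filled points, 3 treated arrays against 1 control) and on the other days (open points, 1 treated array against 3 controls of a different scan day and slide), for dexamethasone (left) and dexamethasone with clenbuterol (right). SREBF2, INSIG1, MVD, LSS, CYP51A1 (dim), FADS2 and LPIN1 keep their sign on both sides in each panel. SCD, SQLE and AGPAT2 after dexamethasone and ACSS2 and FADS1 after the combination cross 0.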

How the data were processed

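Per the file headers, the deposited scanner files hold spot intensity on a linear scale from Agilent Feature Extraction 9.5.1.1, and the authors' deposited value table holds intensity too. The table ranked spots as the scanner signal did (Spearman correlation of at least 0.999996), with array medians of 137.25 to 181.167; how it was made is not stated in the labels or headers. The 38 members and all gene lists were chosen with earlier results of these data known.

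Log2 of the processed signal minus each array's 75th percentile was taken, outlier spots were left out, spots of a probe averaged, and a probe kept if 4 or more of the 12 arrays had it well above background (14703 of 21475). Names were updated through a RefSeq table of assembly ARS-UCD2.0: 9716 probes matched by gene number, 3398 by accession, 386 by symbol and 2919 by human match, and 5056 kept the file's name. A gene was represented by 1 probe, preferring probes whose table name and human match were the same and then the highest mean (for PGD the brightest probe was passed over, since it matched another human gene). Over 13667 genes, limma 3.58.1 in R 4.3.3 fitted 3 group means to 12 arrays with eBayes; p-values are two-sided and adjusted by Benjamini-Hochberg per comparison. P-values measure the spread between these animals. The mean correlation between arrays within a group was 0.972 (over genes).

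On simulated data of dexamethasone against control (10 simulations, 13667 genes, 200 changed), 44.8% of genes changed by 1 on the log2 scale and 86.4% of those changed by 2 were called, with 7 false calls on average. Named genes are all members, given in full where groups did not overlap in 2 or more comparisons or among the 3 smallest unadjusted p of a branch and comparison; the 2 of smallest p per comparison among other pathway genes; and PLIN1, ADIPOQ and LEP. Some genes that this rule names are not reported here. FADS3 and FABP4, and the remaining genes given with values, were chosen after their values were seen. A planned description of promoter motifs was not run, and no probe or promoter sequences were used here.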

Additional observations from a re-analysis of the deposited data

Results flagged for a closer look

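In 6 of 111 sets of 4 animals tested, 1 animal stood apart from the other 3 by Dixon's criterion at the 95% level (its gap to the nearest animal over the whole range). Chance alone gives about 1 in 20. Combination replicate 4 was low for ME1, at -1.51 against -1.04 to -0.95, and high for DHCR7, at 0.80 against 0.29 to 0.36. Control replicate 4 was high for PGD, at 1.31 against 1.11 to 1.14, and low for FDFT1, at 2.25 against 2.81 to 2.86, and for NSDHL, at -5.11 against -4.28 to -4.13. Control replicate 1 was low for CYP51A1, at -7.25 against -5.68 to -5.48. Control replicate 4 was the only control scanned on day 2, and combination replicate 4 the only array scanned on day 4; their part in these values was not tested.

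FADS1 was picked out because its difference from control had opposite signs under the treatments, -0.66 after dexamethasone and 0.61 after the combination, and its 4 values did not overlap between the treated groups. The difference between them was 1.27, and its test did not pass (limma adjusted p = 0.225).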

How the results depend on the processing

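The 27 alternatives for each result (26 for ELOVL6, CYP51A1 and NSDHL, which were not well above background on all arrays and so had no value under that filter) included 12 that left out 1 array, and 1 (the second brightest probe of LSS, SCD and PGD) chosen after seeing the data. In all of them 0 members passed an adjusted p of 0.05 (limma). No paired analysis was possible because replicate numbers follow accession order and pair no animals. The cause of the shifts below was not tested. For dexamethasone against control, 84 genes were called over the whole array, 24 to 265 with 1 array left out, 25 with no filter on dim probes (more genes tested), 13 with scan day 2 as a block, and 0 with each scan day as a block, within scan day 2 or outside it. For the combination against control, 6 were called, 0 to 12 with 1 array left out, 3 with quantile normalization or only the 8 arrays compared, 2 with all probes of a gene averaged, 1 outside scan day 2, and 0 with no filter, with probes well above background on all arrays, with either scan block, with slide as a random block (correlation 0.058) or within scan day 2. For the combination against dexamethasone, 2 were called, 0 to 74 with 1 array left out, 1 with normexp, with probes well above background on all arrays or outside scan day 2, and 0 with quantile normalization, no filter, averaged probes, 8 arrays, either scan block, slide or within scan day 2. The highest counts, 265, 12 and 74, came without dexamethasone replicate 1. Branch medians moved beyond the spread only outside scan day 2: the fatty acid median to -0.169 after dexamethasone, 0.007 after the combination and 0.217 between the treated groups, and the sterol median to 0.318 between them. With 1 array left out, fatty acid medians ran from 0.058 to 0.257, 0.091 to 0.327 and -0.228 to 0.070, and sterol medians from 0.092 to 0.309, 0.098 to 0.281 and -0.072 to 0.062, in the same order. With no filter the median of all genes was 0.139 after dexamethasone and 0.106 after the combination. Adjusted p of the leading members ran from 0.0614 to 0.656 for SREBF2 and 0.0599 to 0.846 for INSIG1 after dexamethasone, 0.139 to 0.78 and 0.176 to 0.643 after the combination. Signal over background limits CYP51A1, ELOVL6, NSDHL and the 2 genes that did not pass the filter.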
